A study of Arabidopsis thaliana with 36 samples.

Results

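COR27 (AT5G42900, chromosome 5) and COR28 (AT4G33980, chromosome 4) are a pair of related, cold-inducible Arabidopsis genes that lie downstream of the circadian clock. Probe sets that name either gene alone in the platform annotation were taken, which lists COR28 by its locus. That gave 1 probe set for each gene, 2 genes of the 13350 that the annotation names alone. Both passed the filter on low values (3 arrays or more at log2 5 or above), as did 12635 of the 22810 probe sets in all. COR28 passed through its 6am and 12am arrays alone, since all 18 of its arrays from 12pm and 6pm lay under 5.

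The arrays came from the aerial part of 10-day-old CCA1-ox plants in the Columbia background. CCA1-ox plants overexpress CIRCADIAN CLOCK ASSOCIATED 1 (CCA1), a MYB transcription factor of the clock that is normally at its highest around dawn. Every array used here carries this transgene. Wild-type plants are not analysed here, so nothing below separates the transgene from the daily cycle. How many transgenic lines were used is not stated in the labels. The medium was agar with 1% sucrose, and the day had 16 h of light, starting at 6am, and 8 h of dark. They were harvested at 6am, 12pm, 6pm and 12am, and 3 fractions were hybridised at each time: large polysomal, small polysomal and non-polysomal RNA. That gave 12 groups of 3 replicates, 36 arrays in all. The labels do not say that replicates were separately grown, so the spread behind each p-value is that of these samples and may be technical in part.

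In wild-type Arabidopsis COR27 and COR28 RNA accumulates towards the night, when the morning factors CCA1 and LHY, which repress both genes through their promoters, are low. The proteins in turn lower the expression of evening clock genes such as PRR5 and TOC1, and they act in freezing tolerance, flowering and seedling growth. They also bind the E3 ligase COP1, which removes them in darkness, so that RNA and protein need not follow each other. Polysomal RNA is RNA bound by several ribosomes, and the large polysomal minus the non-polysomal log2 value of an extract is called the loading of a transcript. It is relative to the average transcript of each array, because the arrays were normalized to each other.

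Arrays of 1 group resembled each other closely (r of 0.961 to 0.996 over the tested probe sets), and precision is limited by having 3 of them. Markers of the labelled tissue were high in every group, with group means of 12.60 to 13.93 for RCA (Rubisco activase) and 11.94 to 13.72 for SBPASE, a Calvin cycle enzyme. The other 4 of 6 listed aerial markers and 3 of 4 root markers have no probe set named here. PYK10, a beta-glucosidase gene best known from roots, had group means of 10.59 to 12.31. Its level was 11.01 at 6am, 11.53 at 12pm, 12.19 at 6pm and 11.85 at 12am. Whether root tissue had a part in the results was not tested.

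COR27 RNA was abundant at 6am and 12am, lowest at 12pm and intermediate at 6pm, in each of the 3 fractions. At 6am its log2 values in replicates 1 to 3 were 11.14, 11.02 and 10.83 in the large polysomal fraction, 11.83, 11.38 and 11.47 in the small polysomal fraction, and 12.74, 12.83 and 12.51 in the non-polysomal fraction. At 12pm they were 5.08, 5.08 and 5.33 in the large polysomal, 4.69, 5.58 and 5.64 in the small polysomal, and 6.28, 5.85 and 6.15 in the non-polysomal fraction. The lowest non-polysomal value at each of these times stood above every large polysomal value. At 6pm COR27 read 7.67, 7.57 and 7.48 in the large polysomal, 8.87, 8.21 and 8.17 in the small polysomal, and 9.72, 9.24 and 9.23 in the non-polysomal fraction. At 12am it read 10.93, 10.81 and 10.71 in the large polysomal, 11.75, 11.53 and 11.34 in the small polysomal, and 12.47, 12.24 and 12.12 in the non-polysomal fraction. The groups of the 3 fractions did not overlap at 6am, 6pm or 12am, and at 12pm the small polysomal arrays overlapped the large polysomal ones.

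COR28 shared the low values at 12pm and the higher values at 6am and 12am, and its highest values were those of 12am. At 6am its log2 values were 6.32, 5.69 and 5.85 in the large polysomal, 6.23, 6.05 and 6.13 in the small polysomal, and 6.61, 6.72 and 6.58 in the non-polysomal fraction. At 12pm they were 2.87, 3.21 and 3.79 in the large polysomal, 3.30, 3.68 and 3.50 in the small polysomal, and 2.69, 3.04 and 3.37 in the non-polysomal fraction. The fractions overlapped at 12pm, where all values were close to the lowest value of the scale, 2.15. At 6pm COR28 read 3.78, 3.50 and 3.42 in the large polysomal, 4.36, 4.37 and 3.50 in the small polysomal, and 4.19, 3.50 and 3.52 in the non-polysomal fraction. The same value, 3.50, stood on 3 of the 6pm arrays, 1 in each fraction, so these arrays carry no measured difference between fractions. At 12am it read 8.05, 7.98 and 7.40 in the large polysomal, 8.48, 8.17 and 8.01 in the small polysomal, and 8.74, 7.98 and 7.08 in the non-polysomal fraction. The 3 non-polysomal arrays at 12am spread more widely than any other group of either gene (SD 0.83, n = 3), and they spanned all large polysomal values at that time.

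**Figure D1:**
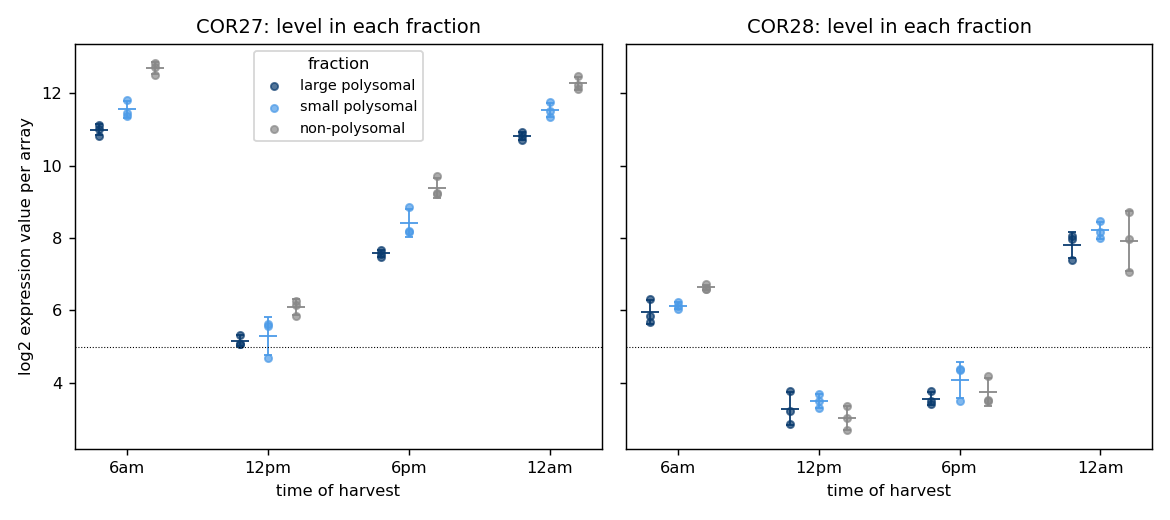
Log2 expression value of COR27 (left) and COR28 (right) on each array by time of harvest, with large polysomal, small polysomal and non-polysomal arrays side by side; points are arrays, bars are mean and SD (n = 3), and the dotted line marks the filter value of 5. COR27 ran from 4.69 to 12.83 with the non-polysomal fraction on top at all 4 times, while COR28 ran from 2.69 to 8.74 and lay under 5 on all arrays of 12pm and 6pm.

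Because both genes were chosen for being high in the dark, their levels over the day are given as a description without a test. The level, the mean of the 3 fractions of an extract, was 11.75 ± 0.15 at 6am, 5.52 ± 0.18 at 12pm, 8.46 ± 0.25 at 6pm and 11.54 ± 0.16 at 12am for COR27 (SD, n = 3 extracts each). From highest to lowest the order was 6am, 12am, 6pm and 12pm. The 6am extracts (11.60 to 11.90) and 12am extracts (11.39 to 11.72) overlapped, and the other times did not. For COR28 the level was 6.24 ± 0.13 at 6am, 3.27 ± 0.30 at 12pm, 3.79 ± 0.31 at 6pm and 7.99 ± 0.46 at 12am. Its order was 12am, 6am, 6pm and 12pm, with overlap between the 6pm extracts (3.48 to 4.11) and the 12pm extracts (2.95 to 3.55). In whole tissue, fewer cells that express a gene and less RNA per cell cannot be told apart.

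The mean of 12am and 6am exceeded the mean of 12pm and 6pm by 4.65 ± 0.08 on the log2 scale for COR27 (SE, 25.2-fold) and by 3.58 ± 0.12 for COR28 (12.0-fold). Of the 12635 tested probe sets, 36.5% were called higher in the dark in the same contrast (limma). Here and below 6am, when the light starts, is counted as dark. Since this contrast led to the choice of the genes, nothing is read from the share of 36.5%. With arrays set to an equal mean of their 27 poly(A) spike-in controls, the differences were 4.27 for COR27 and 3.20 for COR28, while the median of all tested probe sets moved by -0.39.

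From 6am to 12pm its level changed by -5.83 ± 0.21 in the large polysomal, -6.26 ± 0.21 in the small polysomal and -6.60 ± 0.21 in the non-polysomal fraction (log2, SE, n = 3 per group). The differences between fractions in this step are those of the loading between 6am and 12pm, which was not called without a block (adjusted p = 0.11). The 12pm large polysomal values were close to the filter value, and 2 of the 3 were identical. From 12pm to 6pm COR27 gained 2.41 in the large polysomal, 3.11 in the small polysomal and 3.31 in the non-polysomal fraction. From 6pm to 12am it gained 3.24, 3.12 and 2.88 in the same fractions. COR28 moved most between 6pm and 12am, by 4.24 ± 0.30 in the large polysomal, 4.14 ± 0.30 in the small polysomal and 4.19 ± 0.30 in the non-polysomal fraction. Its 6pm values were close to the bottom of the scale, so these rises may be understated.

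From 12am to 6am, where both genes were above 5, COR27 stayed within its spread (0.20 ± 0.12, log2 difference and SE of the fit over arrays). COR28 changed by -1.74 ± 0.17, which is 3.35-fold lower at 6am. Both SE are too small, since fractions of an extract deviate together. The COR28 extracts ran from 6.15 to 6.39 at 6am and from 7.50 to 8.42 at 12am. At 6pm COR27 stood at 47.3% of the log2 distance between its 12pm and its highest level. For COR28 that share was 11.1%, but its 12pm and 6pm values were all under 5, so its true course between these times cannot be read from them. To compare the courses, the log2 difference between COR27 and COR28 was taken in each of the 12 extracts, and only its change between times was read, since 2 probe sets cannot be compared in level. The difference varied over the 4 times (F = 176, exact permutation test over 369600 assignments of extracts to times, p = 6.5e-05, the smallest it can give, adjusted p = 0.00019 over 3 tests). In 6 of the 12 extracts, those of 12pm and 6pm, all COR28 values were under 5, and the size of this F depends on them. Both genes were also chosen by their level, so no conclusion is drawn from this p. With the 6am and 12am extracts alone the exact permutation test gave p = 0.10, the smallest that 6 extracts allow, so that without the low COR28 values the design cannot pass the threshold. Between 12am and 6am, where all values of both genes were above 5, the step of COR27 exceeded that of COR28 by 1.95 ± 0.18 (SE over extracts, n = 3 per time). The extracts of these 2 times did not overlap in this difference.

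**Figure D2:**
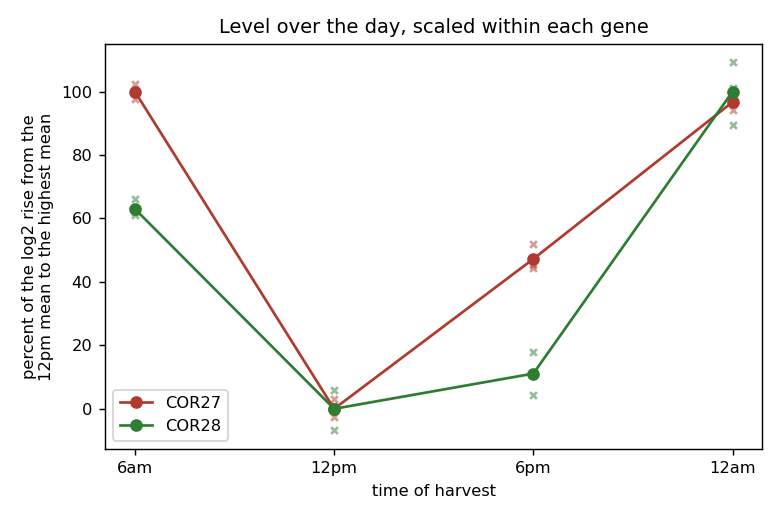
Level of COR27 and COR28 by time of harvest, scaled within each gene so that its 12pm mean is 0% and its highest mean is 100% of the log2 range; lines join means of 3 extracts and crosses are single extracts. COR27 stood at 47.3% at 6pm and 96.7% at 12am, and COR28 at 11.1% at 6pm, 100% at 12am and 63.0% at 6am, with all COR28 values of 12pm and 6pm under the filter value of 5.

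Relative to the average transcript, COR27 RNA was under-represented on polysomes at every time. Once arrays were set to equal spike-in signal, the mean loading of COR27 itself turned positive (0.85). It stayed below the median of all tested probe sets, which was then 2.38. Without that shift the loading of COR27, large polysomal minus non-polysomal, was below 0 in 12 of 12 extracts. At 6am it was -1.60, -1.81 and -1.68, at 12pm -1.19, -0.77 and -0.81, at 6pm -2.05, -1.67 and -1.75, and at 12am -1.55, -1.43 and -1.41. Over the 4 times COR27 was 2.78-fold lower on large polysomes than in non-polysomal RNA (log2 difference -1.48 ± 0.10, SE, limma, adjusted p = 7.0e-14). In this comparison 37.8% of the tested probe sets were called lower, so the call itself is common. The size was less so: 709 of 12635 probe sets had a lower loading, or 5.61%.

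The fall of COR27 relative to the average transcript ran stepwise through the gradient. With arrays set to equal spike-in signal neither step was a fall. The small polysomal minus non-polysomal difference was then 0.038 and the large minus small polysomal difference 0.82. Without that shift the value of COR27 was highest in the non-polysomal, lower in the small polysomal and lowest in the large polysomal fraction in 11 of 12 extracts, the exception being replicate 1 of 12pm. Over the 4 times the small polysomal fraction was below the non-polysomal fraction by a log2 difference of -0.91 ± 0.10 (limma, adjusted p = 7.3e-09), where 31.6% of probe sets were called lower. The large polysomal was below the small polysomal fraction by -0.57 ± 0.10 (adjusted p = 3.7e-05), where 27.7% were called lower. Small polysomal RNA was lower than non-polysomal RNA at each time, with differences between -1.13 ± 0.21 at 6am (adjusted p = 0.00010) and -0.74 ± 0.21 at 12am (adjusted p = 0.0057). In this comparison 16.6% of probe sets were called lower at 6am, 18.8% at 12pm, 17.3% at 6pm and 17.8% at 12am. Between large and small polysomes COR27 passed the threshold of an adjusted p under 0.05 at 6pm (-0.84 ± 0.21, adjusted p = 0.0045, 12.0% called lower) and 12am (-0.73 ± 0.21, adjusted p = 0.018, 7.29% called lower). It did not at 12pm (-0.14 ± 0.21, adjusted p = 0.67, 12.7% called lower) or 6am (-0.56 ± 0.21, adjusted p = 0.0504, 9.51% called lower). With the extract (all fractions of equal time and replicate number) as a random replicate block, the 6am difference was called (adjusted p = 0.0096). With this block the same comparison called 4243 of the 12635 probe sets in either direction, so the call itself is common.

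Time by time, the loading of COR27 was lower than 0 at 6am (-1.70 ± 0.21, SE, limma, adjusted p = 6.6e-08), 12pm (-0.92 ± 0.21, adjusted p = 0.00033), 6pm (-1.82 ± 0.21, adjusted p = 1.3e-08) and 12am (-1.46 ± 0.21, adjusted p = 7.1e-07). At these times 25.6%, 29.1%, 29.2% and 28.9% of the probe sets were called lower. The 12pm extracts, from -1.19 to -0.77, did not overlap those of any other time, and 6am, 6pm and 12am lay between -2.05 and -1.41. Whether loading changed over the 4 times was asked with a moderated F test, which was not called for COR27 (adjusted p = 0.11) in a comparison that called 12.7% of the probe sets. Fractions with the same time and replicate number deviated together, and with the extract as a replicate block the same test was called (adjusted p = 0.016 as a random and 0.020 as a fixed term, with 34.7% and 35.6% of the probe sets called). Without the block no step between neighbouring times was called for COR27. From 6am to 12pm its adjusted p was 0.11 (6.81% of probe sets called), and from 12pm to 6pm it was 0.22, a step at which limma called 0 probe sets, although 1452 had an unadjusted p under 0.05. With the random block the loading of COR27 at 12pm exceeded that at 6am by 0.77 ± 0.24 (adjusted p = 0.021, 19.4% called), and the loading at 6pm was below that at 12pm by -0.90 ± 0.24 (adjusted p = 0.030, 3.78% called). COR27 was at its lowest level at 12pm, with large polysomal values of 5.08 to 5.33 close to the filter value, and how far compression of low values contributes was not tested. Dark and light loading of COR27 did not differ beyond the error (-0.21 ± 0.21, adjusted p = 0.63, 95% interval -0.63 to 0.22, 5.47% of probe sets called).

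**Figure D3:**
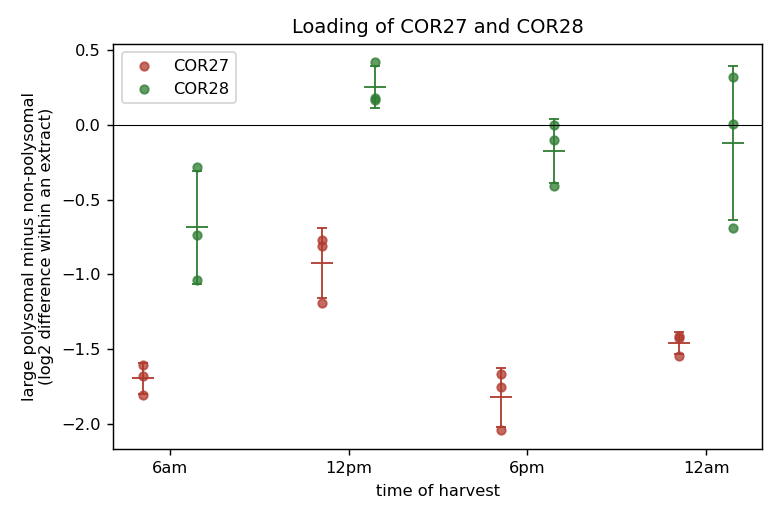
Loading (large polysomal minus non-polysomal log2 value within an extract) of COR27 and COR28 by time of harvest; points are extracts, bars are mean and SD (n = 3), and 0 is equal signal in both fractions relative to the average of each array. All 12 COR27 extracts lay between -2.05 and -0.77, while COR28 ran from -1.04 to 0.42; once arrays were set to equal spike-in signal all of these values are higher.

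For COR28 the loading differed in sign between extracts. It was -0.28, -1.04 and -0.73 at 6am, 0.18, 0.17 and 0.42 at 12pm, -0.41, 0.00 and -0.10 at 6pm, and -0.69, 0.00 and 0.32 at 12am. Among the 6 extracts of 6am and 12am, where COR28 was above 5, it was below 0 in 4, and the non-polysomal, small polysomal and large polysomal values were in falling order in 3. For COR27 both held in 6 of these 6 extracts. Over the 4 times the large polysomal minus non-polysomal difference was -0.18 ± 0.15 (SE, limma, adjusted p = 0.27, 95% interval -0.48 to 0.12), a mean that includes the low values of 12pm and 6pm. From 6am and 12am alone it was -0.40 ± 0.21 for COR28 (adjusted p = 0.089, 95% interval -0.83 to 0.027) and -1.58 ± 0.15 for COR27 (95% interval -1.88 to -1.28). With the extract as a random replicate block the COR28 difference from these 2 times was called (adjusted p = 0.023), in a comparison that called 75.8% of all probe sets. The small polysomal minus non-polysomal difference of COR28 was 0.15 ± 0.15 over the 4 times (adjusted p = 0.38) and -0.10 ± 0.21 from 6am and 12am alone (adjusted p = 0.70). The large minus small polysomal difference was -0.33 ± 0.15 (adjusted p = 0.061), and with the extract as a random replicate block it was called (adjusted p = 0.011). Without the block 27.7% of probe sets were called lower in this comparison over the 4 times.

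At 6am all 3 COR28 extracts had less signal on large polysomes, at -0.68 ± 0.30 (adjusted p = 0.0502), just short of the threshold. With the extract as a random replicate block this difference was called (adjusted p = 0.0084). Without the block 25.6% of probe sets were called lower at 6am, and the share with the block is not given here. At 12pm (0.26 ± 0.30, adjusted p = 0.46), 6pm (-0.17 ± 0.30, adjusted p = 0.64) and 12am (-0.12 ± 0.30, adjusted p = 0.75) COR28 was not called. The 12pm and 6pm values, all under 5, give little information on a difference between fractions. The 12am values were well above 5, yet there the 3 extracts did not share a sign. Split by time, the large minus small polysomal difference at 6pm (-0.51, adjusted p = 0.23) and the small polysomal minus non-polysomal difference at 6am (-0.50, adjusted p = 0.19) were called with the extract as a fixed replicate block (adjusted p = 0.047 and 0.040) and not as a random one (0.074 and 0.064). Loading of COR28 over the 4 times was not called by the F test (adjusted p = 0.37), nor with the extract as a random replicate block (adjusted p = 0.10). With that block its loading at 12pm exceeded that at 6am by 0.94 ± 0.32 (adjusted p = 0.035, 19.4% of probe sets called). This step was also not called without the block (adjusted p = 0.17), and it starts from 6am values above 5 and ends under 5.

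The loading of COR27 was lower than that of COR28 in 12 of 12 extracts, by -1.30 ± 0.35 on the log2 scale (SD over extracts; range -1.73 to -0.77). An exact sign-flip permutation test over the 12 extracts gave p = 0.00049, the smallest it can give (two-sided, adjusted p = 0.00073 over 3 tests). A shift of a whole array cancels in this difference, and the spike-in alternative left it at -1.30. The mean difference was -1.01 ± 0.28 at 6am, -1.18 ± 0.22 at 12pm, -1.65 ± 0.02 at 6pm and -1.34 ± 0.45 at 12am (SD, n = 3). It did not change over the 4 times beyond the spread of the extracts (exact permutation test on F, p = 0.13). All COR28 values of 12pm and 6pm were under 5. Both tests over 12 extracts therefore rest in part on extracts that give little information on COR28 loading. With the 6am and 12am extracts alone, where both genes were above 5, the mean difference was -1.18 (6 extracts, exact sign-flip p = 0.031, the smallest this number allows).

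COR27 and COR28 had similar but not the most similar profiles. Over the 12 group means, which share time and fraction, their Pearson r was 0.87, and 0.86 over the 36 arrays. Among 624 genes whose group means had an SD of at least 1, 24 were closer to COR27 than COR28 was, and 39 were closer to COR28 than COR27 was. The 5 genes most like COR27 were AT1G04040 (r = 0.97), WRKY22 (0.96), AT5G44020 (0.94), AT4G38540 (0.94) and AT5G25240 (0.94). WRKY22, which encodes a WRKY transcription factor, had levels of 8.13 at 6am, 5.66 at 12pm, 6.33 at 6pm and 8.32 at 12am, and a loading of -0.96 ± 0.15. AT1G04040 had levels of 8.96, 6.31, 7.10 and 8.64 at the same times and a loading of -0.76 ± 0.11. The fractions are part of the likeness, so a loading below 0 is partly built into these choices. All 5 swung less than COR27, by 1.56 to 2.23 on the log2 scale between dark and light. COR27 was chosen for this swing, and 12632 of the 12635 probe sets had a lower dark minus light difference. Its larger swing is therefore largely built into the choice.

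The 5 genes most like COR28 were AT1G61100 (r = 0.98), AT1G02660 (0.98), AT5G14120 (0.97), AT3G59350 (0.97) and AT1G19380 (0.97), known in the annotation used here by locus only. AT1G61100 had levels of 7.70 at 6am, 6.11 at 12pm, 6.22 at 6pm and 8.84 at 12am, with a loading of -0.13 ± 0.10. AT3G59350 had 8.58, 5.81, 5.73 and 9.41 and the largest dark minus light difference of the 5, 3.22 ± 0.09. All 5 had a higher level at 12am than at 6am, as COR28 did. Of the 5 genes most like COR27, AT1G04040 and AT4G38540 were higher at 6am, and WRKY22, AT5G44020 and AT5G25240 at 12am. The times are part of the likeness, so these orders are partly built into the choices. None of the 5 genes most like COR28 was among the 5 of COR27. By Spearman's rho the ranks of these 10 genes lay between 1 and 42.5 of 624, and by r over 36 arrays between 1 and 26.

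**Figure D4:**
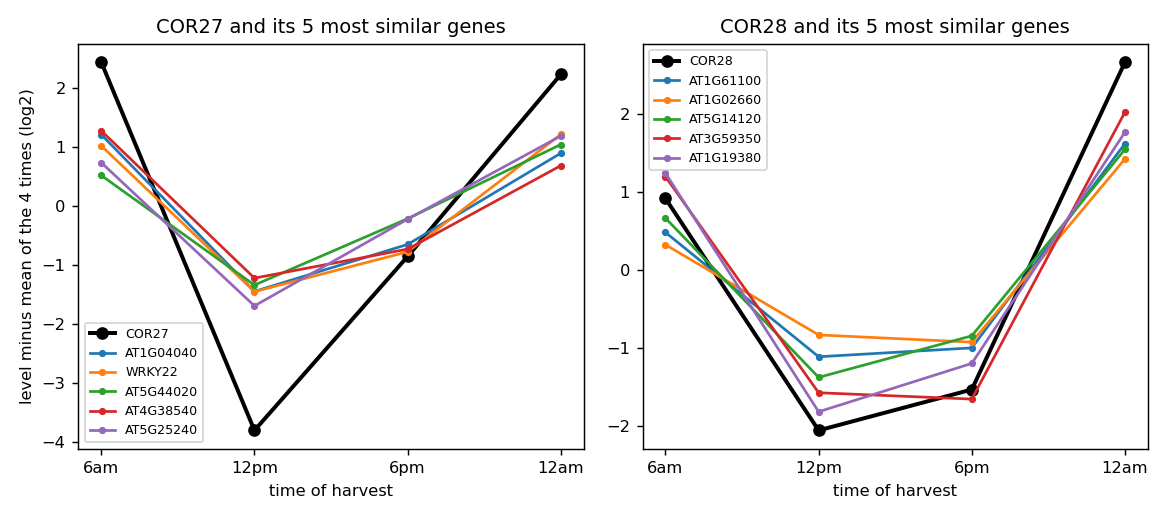
Level (mean of the 3 fractions, log2) by time of harvest, minus the mean of the 4 times, for COR27 (left) and COR28 (right) in black and their 5 most similar genes by Pearson r over 12 group means in colour; lines join group means. COR27 fell further below its mean at 12pm than its 5 neighbours, which is partly built into the choice of COR27 by its level. The neighbours of COR28 were higher at 12am than at 6am, as COR28 was, an order partly built into their choice.

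Genes known to act with COR27 and COR28 could be followed only where a tested probe set names them alone, since 5548 tested probe sets carry no gene name here. Of 28 listed clock genes 3 were named, and all 3 were higher on large polysomes relative to non-polysomal RNA, where 42.3% of the tested probe sets were called higher. GIGANTEA (GI), an evening clock protein, had a loading of 1.26 ± 0.12, RVE6, a MYB activator of evening genes, 0.64 ± 0.11, and the clock regulator TIC 3.28 ± 0.10 (SE, limma, adjusted p = 1.4e-10, 5.0e-06 and 1.1e-21). In level, GI (adjusted p = 3.2e-10) and RVE6 (-0.69 ± 0.09, adjusted p = 4.5e-08) were lower in the dark, where 36.1% of probe sets were called lower, and TIC was higher (0.48 ± 0.08, adjusted p = 8.3e-06). GI had levels of 6.54 at 6am, 7.98 at 12pm, 7.43 at 6pm and 6.87 at 12am, and so was highest when COR27 and COR28 were lowest.

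Of 23 listed light-signalling genes 3 were named. BIC1 and BIC2, inhibitors of the cryptochrome blue-light receptors, were lower in the dark by -3.90 ± 0.10 and -5.03 ± 0.14, and HYH, a bZIP relative of HY5, by -1.76 ± 0.14 (limma, adjusted p = 7.6e-24, 3.6e-23 and 9.6e-13). HYH was low at 12am alone, with levels of 10.06 at 6am, 10.28 at 12pm, 10.13 at 6pm and 6.84 at 12am. BIC1 (0.31 ± 0.13) and BIC2 (1.04 ± 0.18) were higher on large polysomes, and HYH was at -0.21 ± 0.17 (adjusted p = 0.24). Of 18 listed cold-response genes 4 were named. COR15A and COR15B, which encode chloroplast cryoprotective proteins, were lower in the dark (-2.28 ± 0.21 and -2.26 ± 0.18), the dehydrin gene COR47 was higher (0.79 ± 0.09) and the dehydrin gene LTI30 was at 0.09 ± 0.21 (adjusted p = 0.71). The 4 had loadings between 1.07 ± 0.25 for COR15A and 3.08 ± 0.11 for COR47, all called. Group means of LTI30 ran from 3.58 to 6.66, so its loading also rests in part on low values. Of 11 listed flowering genes 1 was named, CDF5, which encodes a DOF repressor of CONSTANS. CDF5 was higher in the dark by 2.09 ± 0.07 (adjusted p = 5.2e-21), with levels of 7.99 at 6am, 5.20 at 12pm, 5.43 at 6pm and 6.84 at 12am, and its loading was 0.38 ± 0.09. Of the 11 genes named in these 4 lists, 10 were called higher and 0 lower on large polysomes. Of all tested probe sets 42.3% were called higher and 37.8% lower. Loading over the 4 times was called for 0 of the 11 by the limma F test, which called 12.7% of all probe sets, and the smallest adjusted p was 0.0503 for GI. With the extract as a random replicate block GI and TIC were called, and as a fixed one also COR15A and COR15B, where 34.7% and 35.6% of all probe sets were called. The listed evening outputs, 3 in number, had no probe set named here.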

How the data were processed

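RNA of 3 fractions of CCA1-ox plants, copied from an oligo(dT) primer and labelled with biotin, was measured on 36 Affymetrix arrays, per the labels. The authors deposited log2 expression values per probe set, made with GCRMA, R 3.1 and affy 1.42.3, per the submitters' processing notes. Other settings are not given in the sources used here. The values share a lower end of 2.15, so differences between low values are compressed.

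Probe sets were named from the platform annotation, with loci matched through RefSeq. After 64 control probe sets were left out, 12635 passed the filter, of which 6824 name 1 gene. Linear models with 12 group means had 24 residual degrees of freedom and used lmFit and eBayes of limma 3.58.1 (R 4.3.3). P-values were adjusted after Benjamini and Hochberg over all 12635, and a probe set was called under 0.05. Light is 12pm and 6pm, dark 12am and 6am, although the light starts at 6am. SE is that of the moderated fit, except where it is given over extracts. The SE of the fit ignores that fractions of an extract deviate together, which makes SE of levels too small and SE of loadings too large.

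The labels number replicates in each group. Deviations from the group means correlated above 0.1 in 36 of 36 pairs of fractions with equal time and number (median r = 0.42), so the 12 extracts were used as a replicate block in alternatives (consensus correlation 0.355). Other alternatives were the filter, scaling, spike-in shift, variance model, definitions of loading and level, and left-out arrays. Permutation tests used numpy 2.4.6 in Python 3.11.15, and figures matplotlib 3.10.9. The permutation test on F was tried on simulated data. Named genes are both members, their 5 most similar genes, the 3 listed genes with the smallest p per list and all measured clock genes. The genes, lists and tests were chosen with earlier results of these data known.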

Additional observations from a re-analysis of the deposited data

Results flagged for a closer look

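The difference between COR27 and COR28 varied over the 4 times by the exact permutation test (F = 176). Both genes were chosen by their level, so no conclusion is drawn from this test. All COR28 values of 12pm and 6pm were under 5, and without those times the exact permutation p was 0.10, the smallest that 6 extracts allow. The mean of this difference, whose own size cannot be read, was 5.51 ± 0.09 at 6am, 2.25 ± 0.13 at 12pm, 4.67 ± 0.13 at 6pm and 3.56 ± 0.31 at 12am (log2, SD, n = 3 extracts). No group had enough arrays for a search for outlying samples.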

How the results depend on the processing

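The call and direction of COR27 depletion from polysomes held under all alternatives but the spike-in shift, including every left-out array or replicate number (loading -1.51 to -1.42). After the shift to equal mean of 27 poly(A) spike-in probe sets, whose mean log2 value was 5.57 in large polysomal, 6.95 in small polysomal and 7.90 in non-polysomal arrays, the median loading of all probe sets became 2.38, against 0.05, and 12319 were called higher and 40 lower, against 5342 and 4782. COR27 then stood at 0.85 for the mean loading (0.80 at 6am, 0.98 at 12pm, 0.62 at 6pm, 1.01 at 12am), 0.038 for small polysomal minus non-polysomal, 0.82 for large minus small polysomal, and 0.10 for dark minus light loading. COR28 stood at 2.15 (1.81, 2.17, 2.27 and 2.35 at the 4 times), 1.10 and 1.05. Relative to that median COR27 was at -1.53 and COR28 at -0.23, and their ranks were unchanged. Dark minus light levels became 4.27 and 3.20, with 1145 probe sets called higher and 5592 lower, and 1 listed gene higher in the dark, against 3.

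COR27 loading over the 4 times was called with the extract as a fixed (adjusted p = 0.020) or random (0.016) replicate block, and without the small polysomal arrays (0.049). Its adjusted p ran from 0.019 to 0.66 over left-out arrays and replicate numbers. The number of probe sets called in that test was 1599, against 4499 and 4385 with these blocks, 2635 with the replicate number as a block, 7 after the spike-in shift, 599, 953 and 22 with other definitions of loading, and 25 to 2211 over left-out arrays (25 without replicate 2, 234 without replicate 3).

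COR28 at 6am was called with the filter at 7 (adjusted p = 0.046, at -0.68), median centring (-0.74), quantile normalization (-0.76), cyclic loess (-0.73), each replicate block (-0.68; adjusted p = 0.0042, 0.0084 and 0.039) and the contrast's arrays alone (-0.68), and it ran from -0.88 to -0.51 over left-out arrays. Its large minus small polysomal difference (-0.33) was called with each replicate block (adjusted p = 0.0059, 0.011 and 0.048) and the contrast's arrays alone (0.027), and ran from -0.41 to -0.26. Its mean loading ran from -0.29 to -0.079 over left-out arrays, called without replicate 3 of the 12am non-polysomal arrays. It was 0.15 as small polysomal minus non-polysomal. COR28 loading was 0.085 and 0.34 at 6pm and 0.085 and 0.29 at 12am with both polysomal fractions or the small polysomal fraction over the non-polysomal one, and over left-out arrays it ran from -0.29 to 0.054 at 6pm and from -0.55 to 0.28 at 12am. Its small polysomal minus non-polysomal difference was -0.0091 with median centring and -0.10 from 6am and 12am alone, and its dark minus light level was 3.90 from the non-polysomal fraction alone. The difference in course between COR27 and COR28 gave an exact permutation p = 0.10 without 12pm and 6pm, the smallest p for 6 extracts. Both alternatives without 12pm and 6pm were chosen after seeing the data. The blocks changed no other call among the results recomputed, beside the comparisons by time that the report gives with their blocked values, and the causes were not tested.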
